A study of Mus musculus with 4 samples.

Results

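The Notch ligands Dll1, Dll4, Jag1 and Jag2, the receptors Notch1, Notch2, Notch3 and Notch4, and the target genes Hey1 and Heyl were followed in the transcriptome of pregnant mouse uteri. These 10 genes were taken by name as members of the Notch pathway, with earlier results of these data known, and all 10 were found among the 55421 genes counted in each library. The study asked how the lack of Qa-2, a non-classical class I antigen encoded by H2-Q genes, affects pregnancy in mice. At E18.5 uteri were taken from 2 WT mice of the strain C57BL/6J and from 2 Qa-2- mice of the line B6.K1 (strain B6.Cg-H2b3/FlaCmwJ), and the RNA of each mouse was sequenced as 1 library. By the study's methods the RNA was isolated from milligram amounts of frozen tissue. A library therefore need not hold the cell makeup of the whole organ. Qa-2- mice are not a targeted knockout. They are an H2 congenic line on the C57BL/6 background that arose spontaneously, and they came from another supplier than the WT mice, so that Qa-2 loss, linked alleles and origin cannot be told apart here. Mothers were mated within their own strain, so that the fetuses of Qa-2- mice lacked Qa-2 as well, and neither group carried a transgene or received an agent.

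Notch receptors are read out by contact between neighbouring cells. A ligand of the Delta-like or Jagged family on one cell binds a receptor on the next, the receptor is cleaved, and its intracellular domain joins the DNA-binding protein RBPJ in the nucleus to switch on repressor genes of the Hes and Hey families. In blood vessels the pathway is known for restricting endothelial sprouting, for arterial identity and for the coating of vessels by mural cells, and in the uterus it is known from the decidua and the epithelium.

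The 4 libraries held between 33286390 and 41041299 counted read pairs, so that a floor of 3 counts lay at 0.0731 to 0.0901 CPM (counts per 1000000 counts of the library), for counting error only. All values below are CPM on library sizes scaled by TMM normalization unless a length is named. The genotype check followed the labels. H2-Q7, a Qa-2 gene, was at 157.4 and 33.2 CPM in the WT libraries and at 0.113 and 0.0572 CPM in the Qa-2- libraries, and H2-Q6 was at 104.7 and 31.6 against 0.0845 and 0.0858 CPM. Genes known from smooth muscle, uterine epithelium and stroma were present in every library, and no marker of these lists was at or under the floor throughout. Single libraries stood apart in their tissue makeup. WT replicate 2 held a summed 45003 CPM of 8 smooth muscle genes against 12840 to 27030 CPM in the other 3 libraries, and Qa-2- replicate 1 held a summed 472 CPM of 4 yolk sac genes against 6.30 to 45.8 CPM. The labels give no sequencing date or batch. The tests below set a difference against the spread between these mice, 2 per group, with the spread of a gene moderated over all genes. Their p-values are adjusted over all genes tested.

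All 10 Notch genes passed the filter of 1 CPM in at least 2 libraries. Of these, 8 had a higher and 2 a lower fitted level in WT uteri, with a median log2 fold change (WT over Qa-2-) of 0.31 against 0.01 over all 14492 genes tested. The median of the members was 0.16 without WT replicate 2, 0.20 without Qa-2- replicate 2 and 0.51 without Qa-2- replicate 1. Of the 8 with a higher fitted level in WT, the signs of Dll1, Notch3 and Heyl turned when a single library was left out, and that of Heyl also with library totals alone. No Notch gene passed an adjusted p of 0.05 in the quasi-likelihood test of edgeR (Benjamini-Hochberg), and neither did any other gene (0% of genes tested). At an unadjusted p under 0.05, Dll4, Notch1, Notch4 and Hey1 were higher in WT uteri, 4 of 10 where 8.09% of all genes were, and Jag1 was lower, 1 of 10 where 7.09% were. Both WT values lay above both Qa-2- values for 5 members, Dll4, Jag2, Notch1, Notch4 and Hey1, as they did for 25.4% of all genes. They lay below for 1 member, Jag1, as for 24.5% of all genes. With DESeq2 in place of edgeR, 2 members were called higher, Dll4 and Hey1, where 2.79% of all genes were, and 0 members were called lower, where 2.04% were. In whole tissue, fewer cells of a type and less RNA per cell cannot be told apart.

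**Figure D1:**
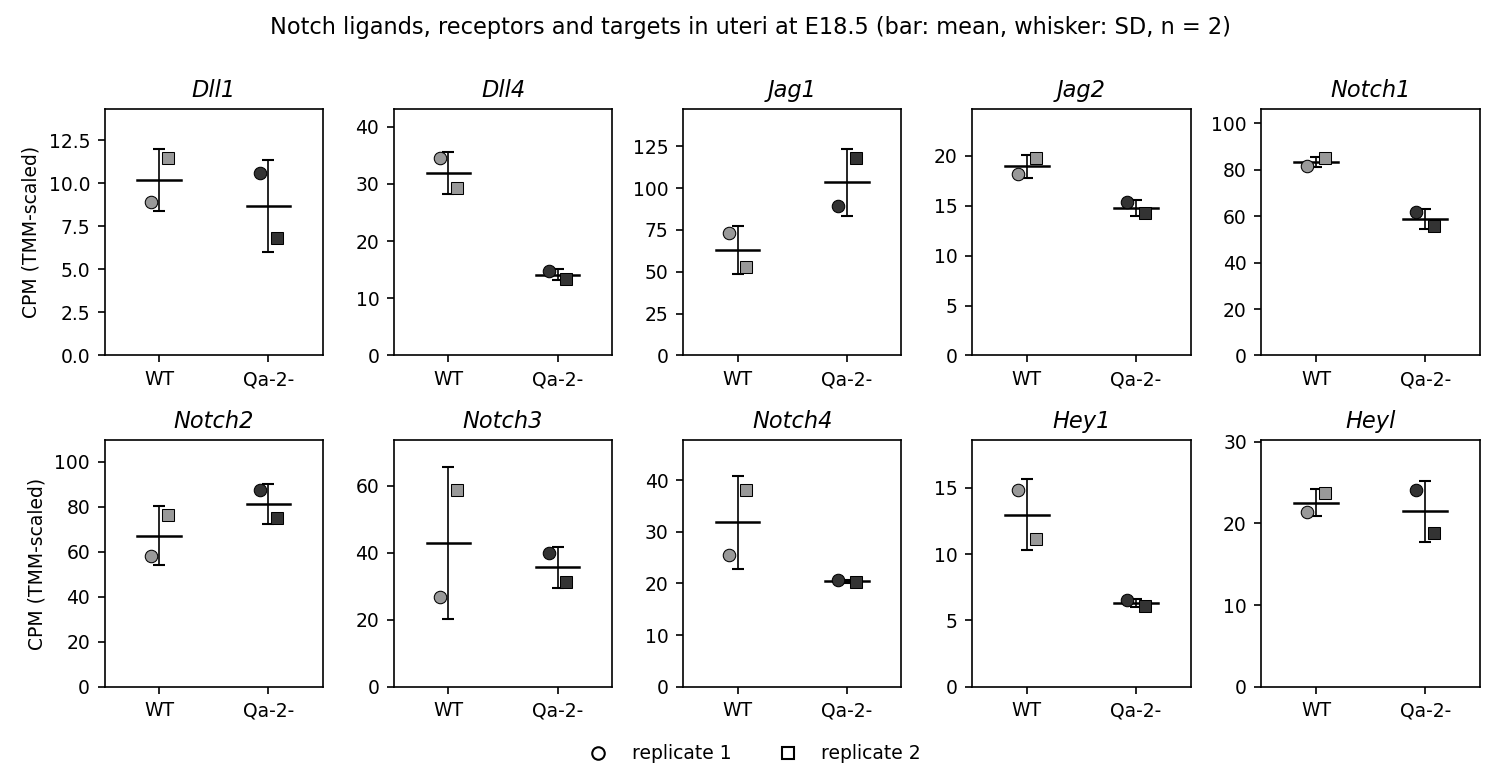
CPM on TMM-scaled library sizes (vertical axes, each from 0) of the 10 Notch genes in the 2 WT and the 2 Qa-2- libraries. Circles are replicate 1 and squares replicate 2, with the mean as a bar and the SD as a whisker (n = 2). The groups do not overlap for Dll4, Jag2, Notch1, Notch4 and Hey1, which are higher in WT, and for Jag1, which is lower.

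Among the ligands, Dll4 and Jag1 stood in opposite directions. Dll4 (ENSMUSG00000027314, GRCm38 chromosome 2, 119325784 to 119335962, plus strand) encodes the Delta-like ligand of arterial and sprouting endothelium. It was at 34.5 and 29.3 CPM in the WT libraries and at 14.8 and 13.4 CPM in the Qa-2- libraries. Both WT values were above both Qa-2- values, with means of 31.9 ± 3.63 and 14.1 ± 0.998 CPM (SD, n = 2), a ratio of 2.26. The log2 fold change was 1.17 ± 0.18 (SE), with an adjusted p of 0.246 in the quasi-likelihood test of edgeR (Benjamini-Hochberg). In DESeq2 the adjusted p was 0.00058. Over the alternatives that kept all libraries it ran up to 0.424, in edgeR with a replicate block. Leaving out single libraries kept its log2 fold change between 1.03 and 1.28.

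Jag1 (ENSMUSG00000027276, chromosome 2, 137081456 to 137116644, minus strand) encodes a Jagged ligand that is made by endothelium, smooth muscle and epithelia. Its levels were 72.9 and 52.8 CPM in the WT libraries against 89.3 and 117.8 CPM in the Qa-2- libraries. Both Qa-2- values were the higher ones, and each group was spread widely, with means of 62.9 ± 14.2 and 103.5 ± 20.1 CPM. On the log2 scale the difference was -0.72 ± 0.24 (SE), with an adjusted p of 0.298 in the quasi-likelihood test of edgeR (Benjamini-Hochberg). Leaving out single libraries moved it between -0.996 and -0.51.

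The other ligands are Jag2 and Dll1. Jag2 (ENSMUSG00000002799, chromosome 12, minus strand), the second Jagged ligand, was at 18.2 and 19.8 CPM in WT and at 15.4 and 14.2 CPM in Qa-2- uteri, with no overlap, a log2 fold change of 0.36 ± 0.17 (SE) and an edgeR adjusted p of 0.394. Dll1 (ENSMUSG00000014773, chromosome 17, minus strand), a Delta-like ligand with roles in somites and in blood cell fate, was at 8.92 and 11.5 CPM in WT and at 10.6 and 6.80 CPM in Qa-2- uteri. The Dll1 groups overlapped, and the log2 fold change of 0.23 ± 0.31 (SE) moved between -0.06 and 0.58 when single libraries were left out.

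Since reads add up with transcript length, the ligands were compared with each other as CPM per kilobase of annotated exon. On this scale Dll4 made up 34.2% and 34.3% of the summed level of the 4 ligands in the WT libraries and 16.1% and 12.8% in the Qa-2- libraries. Jag1 made up 47.8% and 40.8% in WT and 64.1% and 73.9% in Qa-2- uteri. The per-length level of Jag1 was thus 1.40 and 1.19 times that of Dll4 in the WT libraries and 3.98 and 5.79 times in the Qa-2- libraries, a ratio taken within each library and so free of the scaling between libraries. The ratio was formed after the values had been seen. Dll4 was higher and Jag1 lower in both WT libraries, so the lack of overlap in their ratio was fixed beforehand and restates those values. The shares rest on the same values. The ratio was given no test. An exact two-sided permutation test, the kind used for a single value, cannot go below p = 0.33 with 2 against 2 libraries.

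Stretches before the RefSeq starts of both ligand genes are shown to set them beside genes of the pathway that hold the letters bound by RBPJ. They are from RefSeq promoter windows on GRCm38.p6, written 5′ to 3′ on the strand of the gene. Dll4 is chr2:119325664-119325783 (plus strand), Jag1 is chr2:137116521-137116640 (minus strand), Lfng is chr5:140607146-140607265 (plus strand) and Hey2 is chr10:30842914-30843033 (minus strand). The Jag1 stretch lies before the RefSeq start used here and within the Jag1 gene as the GRCm38 annotation of the counts gives it. Capitals mark the RBPJ motif TGGGAA on either strand (TTCCCA on the other) and the E-box CACGTG, the kind of site bound by Hes and Hey repressors. In Lfng the E-box and one TGGGAA overlap in the run CACGTGGGAA.
Dll4: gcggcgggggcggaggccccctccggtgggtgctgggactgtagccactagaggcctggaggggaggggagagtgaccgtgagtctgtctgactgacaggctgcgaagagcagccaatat
Jag1: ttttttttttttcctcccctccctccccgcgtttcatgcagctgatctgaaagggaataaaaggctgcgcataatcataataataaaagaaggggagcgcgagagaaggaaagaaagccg
Lfng: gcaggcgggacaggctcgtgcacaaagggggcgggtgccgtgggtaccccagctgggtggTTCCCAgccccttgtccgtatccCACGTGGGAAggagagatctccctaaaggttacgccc
Hey2: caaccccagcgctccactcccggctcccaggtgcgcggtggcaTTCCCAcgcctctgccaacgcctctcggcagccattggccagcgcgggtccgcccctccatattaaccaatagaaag

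Over the 250 bases before the start, TGGGAA was found on either strand in 21.6% of 32851 promoter windows of all genes, CACGTG in 6.02% and CCGGAA, the core bound by ETS factors of endothelium and other cells, in 12.03%. Windows were matched for 8 of the 10 members (9 windows, with 2 for Dll1), and 0 of them held any of the 3 motifs. Hey1, Heyl and Hes1 were not matched. Of the other genes of the pathway that were searched, Hey2 held 1 TGGGAA, Lfng held 2 and an E-box, Nrarp held an E-box, and Dtx1 held 0 of the 3 motifs. These are matches of letters in a short window and not binding sites.

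Among the receptors, Notch1 and Notch4 were higher in WT uteri. Notch1 (ENSMUSG00000026923, chromosome 2, 26457903 to 26516663, minus strand), a receptor of endothelium, leucocytes and epithelia, was at 81.7 and 84.9 CPM in the WT libraries and at 61.7 and 55.7 CPM in the Qa-2- libraries. The values were close within each group and did not overlap, with means of 83.3 ± 2.25 and 58.7 ± 4.23 CPM (SD, n = 2). This was a log2 fold change of 0.51 ± 0.15 (SE), with an unadjusted p of 0.0175 and an adjusted p of 0.275 in the quasi-likelihood test of edgeR (Benjamini-Hochberg).

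Notch4 (ENSMUSG00000015468, chromosome 17, 34564268 to 34588503, plus strand) is a receptor found mainly in endothelium, and its gene lies within the H2 complex, 0.851 Mb from H2-Q7. It was at 25.5 and 38.2 CPM in WT and at 20.7 and 20.2 CPM in Qa-2- uteri. Both WT values were above the Qa-2- values, and the WT libraries were much farther apart (31.8 ± 8.99 CPM) than the Qa-2- libraries (20.4 ± 0.291 CPM). The log2 fold change of 0.64 ± 0.24 (SE, edgeR adjusted p of 0.315, Benjamini-Hochberg) was 0.32 without WT replicate 2 and 0.88 without WT replicate 1.

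The other receptors overlapped between the groups. Notch2 (ENSMUSG00000027878, chromosome 3, 98013527 to 98150361, plus strand), a receptor with roles in vascular smooth muscle, the decidua and B cells, was at 58.0 and 76.5 CPM in WT and at 87.7 and 74.9 CPM in Qa-2- uteri. Its log2 fold change was -0.27 ± 0.20 (SE), with -0.11 without WT replicate 1, -0.16 without Qa-2- replicate 1 and -0.49 without WT replicate 2, and 5.02% of its exon bases are shared with Gm42820 on the same strand. Notch3 (ENSMUSG00000038146, chromosome 17, minus strand, 3.27 Mb from H2-Q7), the receptor of pericytes and vascular smooth muscle, was at 26.9 and 58.9 CPM in WT and at 40.0 and 31.4 CPM in Qa-2- uteri. WT replicate 2 alone set its direction, with a log2 fold change of 0.27 ± 0.39 (SE) that became -0.41 without that library.

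On the per-length scale the shares of 3 of the 4 receptors did not overlap between the groups. Notch2 made up 30.5% and 28.3% of the summed receptor level in the WT libraries and 40.7% and 40.3% in the Qa-2- libraries. Notch4 made up 18.0% and 18.9% in WT and 12.8% and 14.6% in Qa-2- uteri. For Notch1 the shares were 32.6% and 23.8% against 21.7% and 22.7%, again higher in both WT libraries, while those of Notch3 overlapped. The Notch1 shares nearly met, and the per-length ratio of Notch1 to Notch3 overlapped. The receptor shares of a library add up to a fixed total, so a lower share of Notch2 comes with higher shares elsewhere. The 3 shares without overlap are therefore not separate results. In CPM, 25.4% of all genes were higher and 24.5% lower in both WT libraries, so a lack of overlap was common in these data. The receptor shares were formed after the values had been seen and were not tested.

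Of the target genes, Hey1 was at higher levels in both WT libraries, and Heyl overlapped between the groups. The difference between the fold changes of Hey1 and Heyl was not tested. Hey1 (ENSMUSG00000040289, chromosome 3, 8663359 to 8667256, minus strand) encodes a transcriptional repressor of arterial endothelium and other tissues. It was at 14.9 and 11.1 CPM in the WT libraries and at 6.51 and 6.12 CPM in the Qa-2- libraries. Both WT values were above both Qa-2- values, with means of 12.99 ± 2.66 and 6.31 ± 0.276 CPM, a ratio of 2.06. The log2 fold change was 1.04 ± 0.25 (SE), with an adjusted p of 0.255 in the quasi-likelihood test of edgeR (Benjamini-Hochberg). In DESeq2 the adjusted p of Hey1 was 0.0289. Over the alternatives that kept all libraries it ran up to 0.489, in edgeR with a replicate block. The log2 fold change of Hey1 lay between 0.79 and 1.23 when single libraries were left out.

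Heyl (ENSMUSG00000032744, chromosome 4, 123233556 to 123249875, plus strand), the related repressor of vascular smooth muscle, was at 21.4 and 23.7 CPM in WT and at 24.1 and 18.8 CPM in Qa-2- uteri. The groups overlapped, and the log2 fold change was 0.07 ± 0.20 (SE). The per-length level of Hey1 was 1.09 and 0.733 times that of Heyl in the WT libraries and 0.422 and 0.509 times in the Qa-2- libraries, with no overlap. Hes1, the most widely used Notch target, was at 38.7 and 35.0 CPM in WT and at 35.1 and 47.9 CPM in Qa-2- uteri. The fitted value of -0.17 ± 0.20 (log2, SE) turned to 0.06 without Qa-2- replicate 2. Hey2 was low, at 2.91 and 3.37 against 2.45 and 1.94 CPM, with no overlap and a log2 fold change of 0.51 ± 0.33 (SE, edgeR unadjusted p of 0.182).

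**Figure D2:**
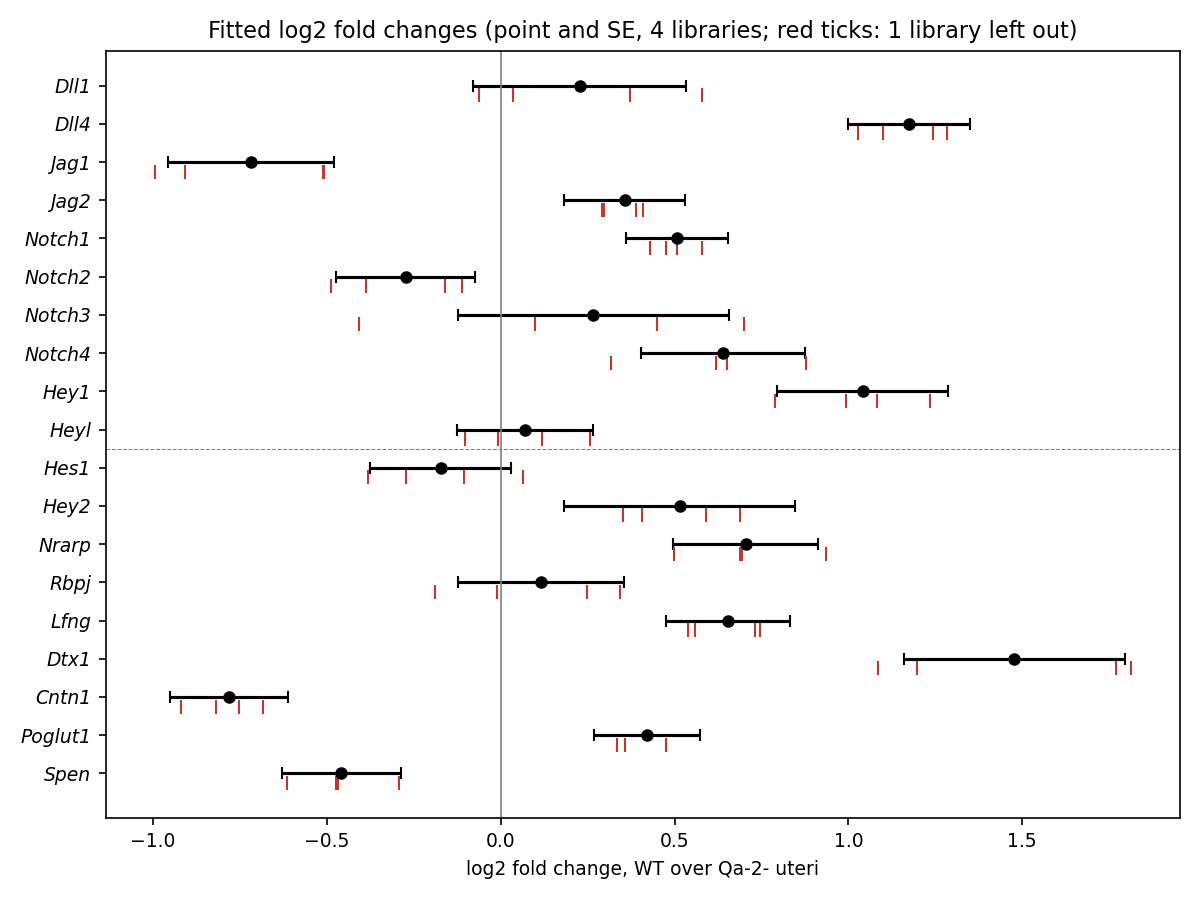
Fitted log2 fold change (WT over Qa-2- uteri, horizontal axis) with its SE for the 10 Notch genes (above the dashed line) and for named genes of the wider pathway (below it). Red ticks are the values after removal of 1 of the 4 libraries at a time. Dll4, Hey1 and Dtx1 lie farthest to the right, Jag1 and Cntn1 farthest to the left, and the ticks of Dll1, Notch3, Heyl, Hes1 and Rbpj fall on both sides of 0.

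The order of the members by CPM per kilobase of exon differed between the groups, among others in the places of Dll4, Hey1 and Notch1. In WT uteri Jag1 (10.8 ± 2.44, SD, n = 2) and Dll4 (8.28 ± 0.942) came first, followed by Notch2 (6.24 ± 1.22), Notch1 (5.85 ± 0.158) and Notch3 (5.30 ± 2.80). Heyl (4.41 ± 0.325), Hey1 (3.98 ± 0.815), Notch4 (3.95 ± 1.12), Jag2 (2.72 ± 0.161) and Dll1 (2.41 ± 0.425) came last. Of the 9 pairs of neighbours in this order, 6 overlapped between libraries. The pairs of Jag1 and Dll4, Dll4 and Notch2, and Notch4 and Jag2 did not.

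In Qa-2- uteri Jag1 (17.8 ± 3.46 CPM per kilobase) stood well above Notch2 (7.54 ± 0.836), and Notch2 above Notch3 (4.41 ± 0.751), Heyl (4.20 ± 0.738) and Notch1 (4.12 ± 0.297). By its mean Notch1 stood above Notch3 and Heyl in WT and below both in Qa-2- uteri. It overlapped with Notch3 in both groups and with Heyl in the Qa-2- libraries. Dll4 (3.67 ± 0.259) held the 6th place, below Notch1 in both libraries. Notch4 (2.54 ± 0.036), Jag2 (2.13 ± 0.116), Dll1 (2.06 ± 0.635) and Hey1 (1.93 ± 0.0845) followed, of which Jag2, Dll1 and Hey1 overlapped with their neighbours. Here 4 of the 9 neighbouring pairs overlapped.

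**Figure D3:**
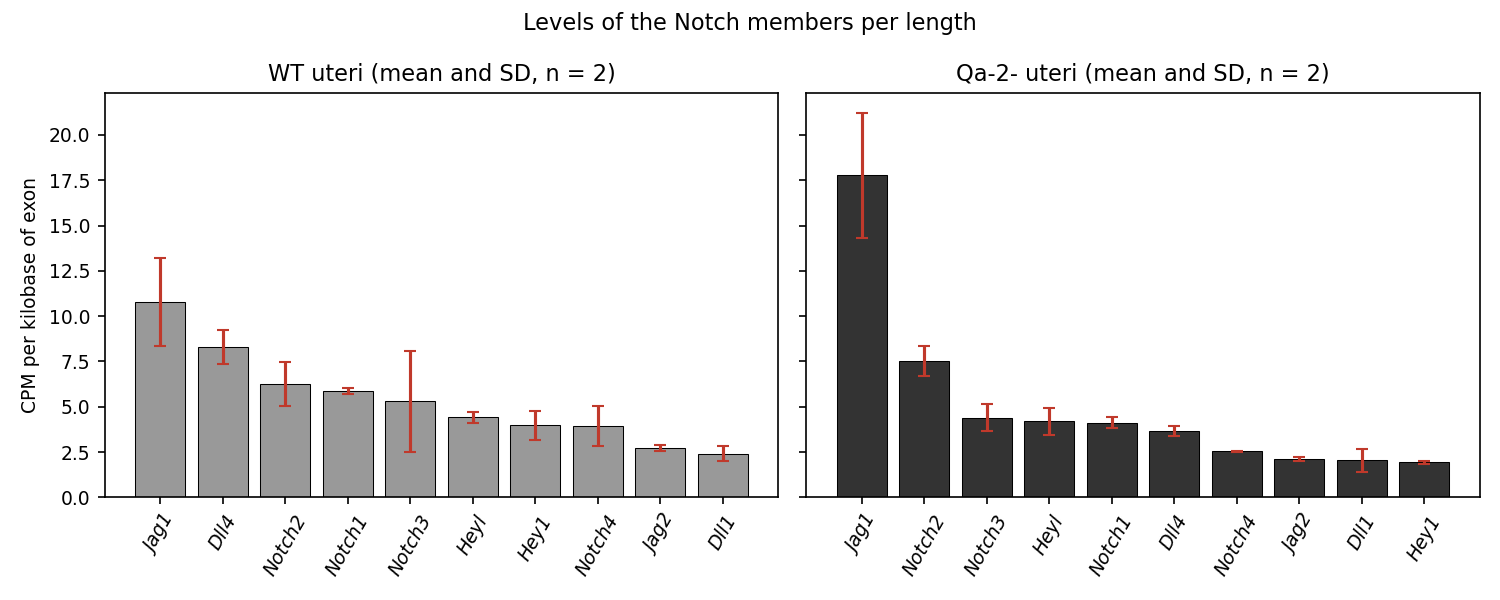
Mean CPM per kilobase of annotated exon (vertical axis, from 0) of the 10 Notch genes in WT (left) and Qa-2- uteri (right), each in descending order, with the SD as a whisker (n = 2). Jag1 comes first in both groups, and Dll4 is in the second place in WT and in the 6th place in Qa-2- uteri.

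The expression of the Notch genes was set beside markers of the cell types a uterus holds, because the pathway is shared by several of them. Counts of markers are read against all genes, of which 25.4% were higher and 24.5% lower in both WT libraries. At an unadjusted p under 0.05 in edgeR, 8.09% were higher and 7.09% lower in WT, and DESeq2 called 2.79% and 2.04%. In such short lists, counts near these shares are not results about a cell type. A summed level follows the most abundant genes of its list. All 12 of 12 endothelial markers, among them Pecam1 and Cdh5, were higher in both WT libraries, and none was at 0. Their summed level was 1543 and 1409 CPM in WT and 721 and 687 CPM in Qa-2- uteri, and the median of their log2 fold changes was 0.92. No endothelial marker passed the adjusted p of edgeR, 11 of 12 had an unadjusted p under 0.05, and DESeq2 called 9 of 12. Dll4 amounted to 22.3 and 20.8 counts per 1000 endothelial marker counts in WT and to 20.6 and 19.6 in Qa-2- uteri. The gap between the groups on that scale, with means of 21.6 ± 1.07 and 20.1 ± 0.729, was thus far smaller than the gap in CPM. Hey1 amounted to 9.64 and 7.89 against 9.03 and 8.91 counts per 1000 endothelial counts, and the groups overlapped.

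Notch1 was the other way round on this scale, with 53.0 and 60.3 counts per 1000 endothelial counts in WT and 85.5 and 81.1 in Qa-2- uteri. Notch4 was at 16.5 and 27.1 against 28.6 and 29.5, also higher in both Qa-2- libraries. The mean endothelial sum was itself 2.10 times higher in WT, while Notch1 and Notch4 had ratios of 1.42 and 1.56 in CPM. Division by this sum turns a gene with a clearly smaller ratio, so the turn is not a result about these receptors. Dll1, Jag1, Jag2, Notch2, Notch3 and Heyl were also lower in both WT libraries per endothelial count. Of 6 further markers of arterial endothelium, 5 were higher in both WT libraries and Sox17 was not, with a summed level of 276 and 230 CPM in WT and of 150 and 138 CPM in Qa-2- uteri. By edgeR 0 of the 6 passed the adjusted p and 5 had an unadjusted p under 0.05, and DESeq2 called 3. Against these, Dll4 was at 125 and 127 counts per 1000 in WT and at 99.2 and 97.6 in Qa-2- uteri, with no overlap. Hey1 was at 53.9 and 48.2 against 43.5 and 44.4, which did not overlap on this scale either. Notch1 was at 296 and 369 against 412 and 405, still higher in both Qa-2- libraries, and Notch4 overlapped, at 92.4 and 166 against 138 and 147. Both scales were formed after the values had been seen, and the part of the endothelium in the differences of Dll4, Hey1, Notch1 and Notch4 was not tested.

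Markers of the uterine epithelium, like Jag1, were at higher levels in Qa-2- uteri. Of 10 epithelial markers, 7, among them Krt8, were lower in both WT libraries and 0 were higher, with a median log2 fold change of -0.81. By edgeR 0 passed the adjusted p and 3 had an unadjusted p under 0.05, and DESeq2 called 2. Their summed level was 2935 and 1719 CPM in WT and 3637 and 3913 CPM in Qa-2- uteri. Jag1 amounted to 24.8 and 30.7 counts per 1000 epithelial marker counts in WT and to 24.5 and 30.1 in Qa-2- uteri, and the groups overlapped. Against endothelial counts, Jag1 was at 47.3 and 37.5 per 1000 in WT and at 124 and 171 in Qa-2- uteri. These ratios were also formed after the values had been seen, and the part of the epithelium in the levels of Jag1 was not tested.

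Of 8 markers of pericytes and vascular mural cells, 4 were higher in both WT libraries, and their summed level was 876 and 1465 CPM in WT against 858 and 601 CPM in Qa-2- uteri. By edgeR 0 mural cell markers passed the adjusted p and 1 had an unadjusted p under 0.05, and DESeq2 called 1. Smooth muscle markers, 6 of 8 higher in both WT libraries, were at the summed levels of 27030 and 45003 CPM in WT and of 23956 and 12840 CPM in Qa-2- uteri. By edgeR 0 of the 8 passed the adjusted p, 0 had an unadjusted p under 0.05, and DESeq2 called 2. WT replicate 2 was highest in both lists and also in Notch3. Notch3 amounted to 30.7 and 40.2 counts per 1000 mural cell counts in WT and to 46.6 and 52.2 in Qa-2- uteri, with no overlap. The part of mural cells and smooth muscle in the levels of Notch3 was not tested.

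**Figure D4:**
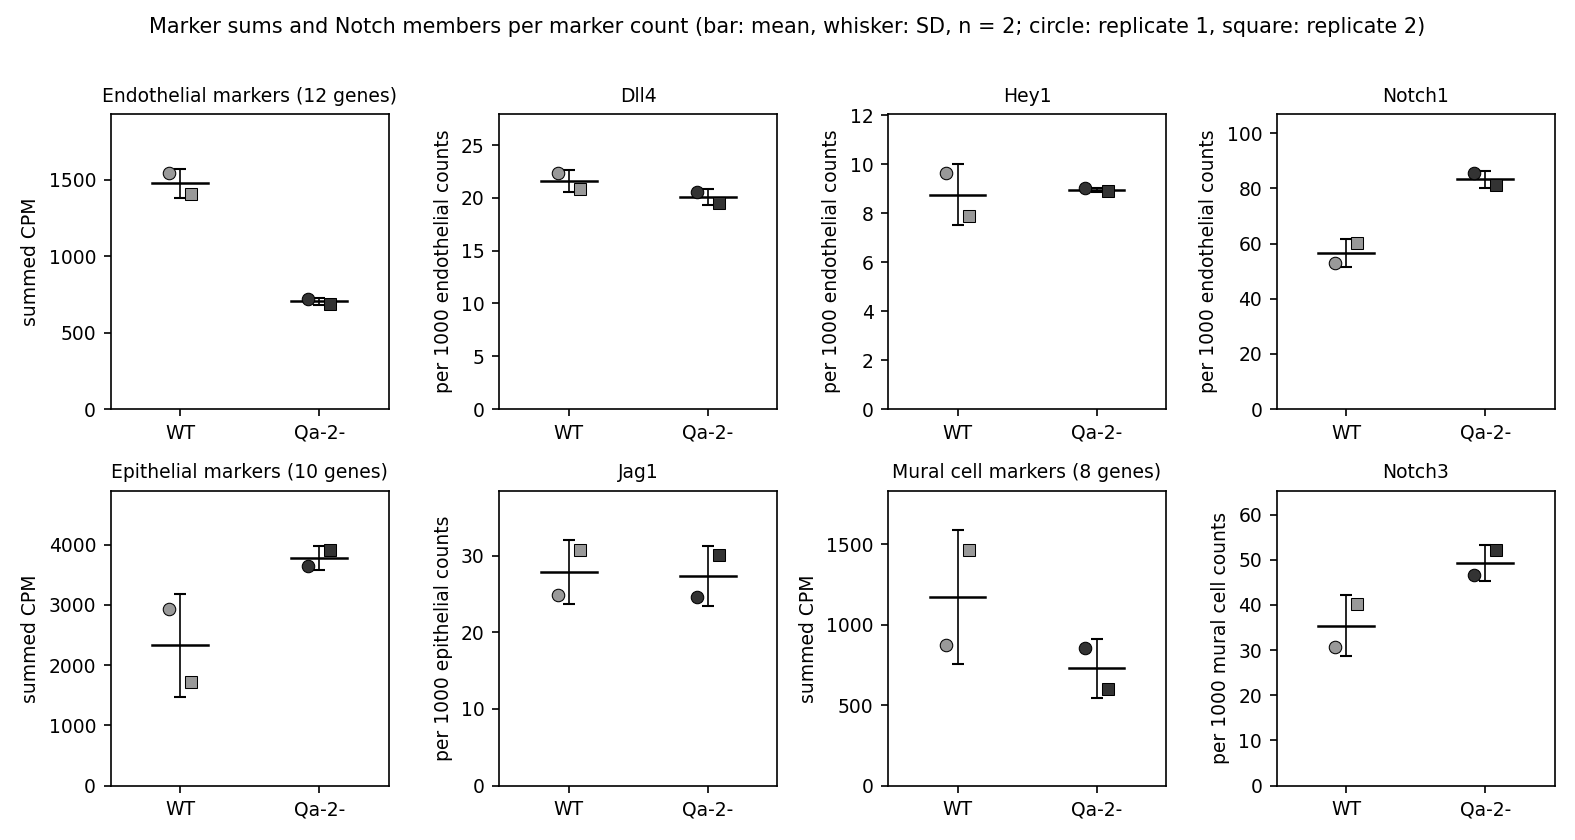
Summed CPM of endothelial, epithelial and mural cell markers, and counts of Dll4, Hey1, Notch1, Jag1 and Notch3 per 1000 counts of the marker list named on the axis (vertical axes, each from 0) in the 2 WT and the 2 Qa-2- libraries. Bars are means and whiskers SD (n = 2). Per count of the 12 endothelial markers, Dll4 and Hey1 lie close together in the groups and Notch1 is higher in Qa-2-, and per epithelial count Jag1 overlaps.

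The other genes of the pathway, a list of 56, gave 47 above the filter, of which 28 had a higher and 19 a lower fitted level in WT uteri. Their median log2 fold change was 0.06. Both WT values lay above both Qa-2- values for 12 of the 47 and below them for 8, where 25.4% and 24.5% of all genes did. None passed the adjusted p of edgeR. At an unadjusted p under 0.05, 4 were higher and 2 lower in WT uteri, where 8.09% and 7.09% of all genes were. DESeq2 called 1 as higher, Dtx1, and 1 as lower, Cntn1, where it called 2.79% and 2.04% of all genes. These counts of the list lay close to or below the shares of all genes.

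Dtx1, a ubiquitin ligase of the Deltex family that modulates Notch receptors, was at 84.6 and 53.5 CPM in WT and at 30.0 and 19.6 CPM in Qa-2- uteri. The groups did not overlap, and the log2 fold change of 1.48 ± 0.32 (SE) exceeded that of any of the 10 members, with an adjusted p of 0.246 in the quasi-likelihood test of edgeR (Benjamini-Hochberg) and of 0.0028 in DESeq2. The alternatives that kept all libraries gave adjusted p-values from 0.0028 in DESeq2 to 0.376 in edgeR with a replicate block. Per 1000 endothelial counts Dtx1 was at 54.8 and 38.0 in WT and at 41.6 and 28.6 in Qa-2- uteri, with overlap. Per 1000 arterial endothelial counts it was at 307 and 232 against 201 and 142, with no overlap.

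Nrarp, a Notch-induced inhibitor of the pathway, was at 24.5 and 24.8 CPM in WT and at 17.4 and 12.8 CPM in Qa-2- uteri, with a log2 fold change of 0.70 ± 0.21 (SE) and an edgeR adjusted p of 0.281 (Benjamini-Hochberg). Both WT values were the higher ones. Of the 6 genes that put sugars on Notch receptors, Lfng, the fringe enzyme that tunes the response to Delta-like and Jagged ligands, and Poglut1, an O-glucosyltransferase, were higher in both WT libraries, 2 of 6 where 25.4% of all genes were. Lfng was at 25.1 and 29.1 against 18.3 and 16.1 CPM, with a log2 fold change of 0.65 ± 0.18 (SE) and an edgeR adjusted p of 0.271. Poglut1 was at 42.7 and 39.3 against 31.9 and 29.4 CPM, with a log2 fold change of 0.42 ± 0.15 (SE).

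Cntn1, an adhesion molecule best known from neurons and described as a Notch ligand, was lower in WT uteri, at 19.1 and 22.9 CPM against 35.2 and 36.9 CPM. Its log2 fold change was -0.78 ± 0.17 (SE), with an adjusted p of 0.246 in the quasi-likelihood test of edgeR (Benjamini-Hochberg) and of 0.0325 in DESeq2. Spen, a corepressor that binds RBPJ, was likewise lower in both WT libraries, at 57.2 and 58.4 CPM against 88.2 and 70.6 CPM. Its log2 fold change was -0.46 ± 0.17 (SE), and -0.29 without Qa-2- replicate 1. Rbpj itself was at 71.8 and 105.6 CPM in WT and at 89.1 and 74.5 CPM in Qa-2- uteri, with overlap and a log2 fold change of 0.12 ± 0.24 (SE) that turned to -0.19 without WT replicate 2 and to -0.012 without Qa-2- replicate 2.

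By role, the counts of genes with no overlap are read against the 25.4% of all genes that were higher and the 24.5% that were lower in both WT libraries. Of 4 other target genes above the filter 2 were higher and 0 lower. Of 12 genes of the nuclear complex and its corepressors 2 were higher and 4 lower, and of 10 genes of receptor cleavage 3 were higher and 1 lower. Of 4 genes of ligand ubiquitination 1 was higher and 0 lower, and of 10 negative regulators 2 were higher and 2 lower. With so few genes in a role, the sugar-adding enzymes included, none of these counts is a result about it. The 9 genes below the filter had at most 44 counts in any library, and 5 of them, among them Hes5 and Dll3, had at most 2. Dlk1, a ligand-like protein of fetal and endocrine tissue, had 1 and 11 counts in the WT libraries and 40 and 0 in the Qa-2- libraries.

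Jag1 and Notch2 ran against the other 8 members in the sign of the fold change. Over all 10, the mean log2 CPM, centred on each gene, was 0.07 and 0.24 in the WT libraries and -0.07 and -0.24 in the Qa-2- libraries. The genes most like this mean profile, by root-mean-square distance in log2 over the 4 libraries, were Ap2a1 (0.0114), Msrb1 (0.0136), Bysl (0.0154), Sh3glb2 (0.0167) and Pitpna (0.0173). This likeness rests on 4 libraries and is a description.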

How the data were processed

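Uteri of 2 WT and 2 Qa-2- mice were compared, grouped by the strain in the labels. The authors deposited counts of read pairs per gene (featureCounts 2.0.0, reverse strand, unique positions), without normalization. The submitters' processing notes name STAR 2.7.3a and GRCm38.p6. Of 55421 identifiers, 55240 were found in GENCODE M21, and 267 had no symbol. Libraries held 33286390 to 41041299 counts. Replicates differed by more than sampling noise (mean chi-square per gene 206.7 for WT and 129.8 for Qa-2-).

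The filter worded in the study's methods, 1 CPM or more in 2 or more libraries, left 14492 genes here, a number other than the one given there, for a reason not known. The methods name no test for the transcriptome. The genes were compared with edgeR 4.0.16 (TMM, glmQLFit and glmQLFTest) in R 4.3.3, with Benjamini-Hochberg adjustment over all genes kept and a threshold of 0.05. An SE is the log2 fold change divided by the square root of F. The steps were tested on simulated counts.

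The members and lists were chosen with earlier results of these data known. Named by rule were the members, Hes1, Hey2, Nrarp, Rbpj, Dlk1, Lfng and the 6 genes of the wider list with the smallest p. Also by rule came genes at the head of a marker list where a sentence needed them, H2-Q6, H2-Q7 and the 5 genes most alike in pattern. Sox17, Hes5, Dll3, Cldn3, Wfdc2, Dcn and Lum were chosen after their values were seen. Replicate numbers of different mice give no pairing, so the block was left out of the comparison. Alternatives were DESeq2 1.42.0, other normalizations and filters, a robust fit, a threshold of 0.1, a replicate block, and leaving out each library in turn.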

Additional observations from a re-analysis of the deposited data

How the results depend on the processing

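With DESeq2, 404 genes were called higher and 296 lower in WT uteri, 2 of them members and 2 of the wider list, where edgeR called 0. Without the filter on low counts edgeR called 47 higher and 14 lower, and without single libraries 0 to 45 higher, 45 of them without WT replicate 2. No member was called in any edgeR fit. Same-numbered libraries, which are different mice, deviated in opposite directions (correlation over genes -0.369). With 2 libraries per group the deviations mirror each other, so this is 1 value, whose sign turns (0.369) with crossed numbers. The replicate block called 2 genes higher, no member among them, and crossed numbers, chosen after seeing the data, called 0. Without single libraries the log2 fold change ran from -0.10 (without Qa-2- replicate 2) to 0.26 for Heyl, with -0.0087 without WT replicate 2 and -0.023 with library totals alone. It ran from -0.41 (without WT replicate 2) to 0.70 for Notch3, from -0.19 (without WT replicate 2) to 0.34 for Rbpj, with -0.012 without Qa-2- replicate 2, and, with the turn without Qa-2- replicate 2, from -0.062 to 0.58 for Dll1 and from -0.38 to 0.063 for Hes1. The cause was not tested. Of the alternatives for single genes, 181 kept direction and side of the threshold, 8 turned, and 3 passed it, all in DESeq2. The members' median ran from 0.16 to 0.51. With all 4 libraries 5 members were higher in both WT libraries, and with 3 libraries, where groups overlap less easily, 5 to 7 were higher in WT without overlap. Leaving out a library leaves 1 in a group, which is assumed to vary like the others. With 2 mice per group the precision is low, and strain, supplier and Qa-2 cannot be told apart.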

Other observations

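Other cell type markers differed between the libraries as well. Of the 6 red cell genes, 5 passed the filter. All 5 were higher in both WT libraries, where 25.4% of all genes were. The summed level was 364 and 722 CPM in WT and 116 and 76.0 CPM in Qa-2- uteri. Markers of stroma and decidua were at a summed 5160 and 4183 CPM in WT and at 3144 and 2298 CPM in Qa-2- uteri. Dcn (3495 and 2772 against 1887 and 1287 CPM) and Lum (793 and 494 against 360 and 221 CPM) made up much of this sum. Of the 10 markers, 4 were higher and 1 lower in both WT libraries, where 25.4% and 24.5% of all genes were, and 5 overlapped. Leucocyte markers were at a summed 317 and 438 against 342 and 250 CPM, with overlap. Of the 6 leucocyte markers above the filter, 3 were higher and 1 lower in both WT libraries. By edgeR 0 passed the adjusted p and 2 had an unadjusted p under 0.05, and DESeq2 called 1. Trophoblast markers were at 0.747 and 35.0 CPM in WT and at 3.83 and 0.257 CPM in Qa-2- uteri, and 4 of 11 had at most 3 counts in every library.

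Lfng and Nrarp, which were higher in both WT libraries in CPM, were lower there against the 12 summed endothelial markers. The mean of that sum was 2.10 times higher in WT, above the CPM ratios of 1.57 for Lfng and 1.63 for Nrarp, so the turn comes with the division. Lfng was at 16.2 and 20.7 counts per 1000 endothelial counts in WT and at 25.4 and 23.5 in Qa-2- uteri, and Nrarp was at 15.9 and 17.6 against 24.1 and 18.7. Against the arterial endothelial markers both genes overlapped, with Lfng at 90.9 and 126 against 123 and 117 and Nrarp at 88.7 and 108 against 116 and 93.3, and against the mural cell markers they overlapped too. These ratios were formed after the values had been seen and have no test.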
